A study of Mus musculus with 74 samples.

Results

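The replication-dependent histone genes are the short genes, packed in clusters, that supply histones H1, H2A, H2B, H3 and H4 for newly made chromatin. Members were taken by symbol: every autosomal protein-coding gene of GENCODE M21 (mm10) whose symbol starts with Hist1h, Hist2h, Hist3h or Hist4h, which gave 67 of 20807 genes. By type these were 6 H1, 18 H2A, 18 H2B, 12 H3 and 13 H4 genes. They were followed through 10 lists of peaks of H3K9me3, the trimethylation of lysine 9 of histone H3, measured by native ChIP-seq of small cell numbers in mouse somatic cell nuclear transfer (SCNT). The lists came from cumulus cells (CC), the nuclear donors, from SCNT embryos at 6 and 14 h post activation (hpa), from 2-cell, 4-cell, 8-cell and morula stage SCNT embryos, and from the inner cell mass (ICM) and the trophectoderm (TE) of SCNT blastocysts. The list of fertilized zygotes was from pronuclear stage 5 (PN5). Donor cells and oocytes came from young adult B6D2F1 females (a C57BL/6j × DBA/2 cross), so every SCNT group carries a B6D2F1 female nucleus, and all SCNT embryos were activated for 6 h in 1 mM SrCl2 with cytochalasin B. The fertilized zygotes came from C57BL/6 females mated with C57BL/6 males and were collected 20 h after hCG injection and cultured to PN5. Strain, sex and possibly the study of origin therefore cannot be told apart from the type of embryo where PN5 is set beside an SCNT group.

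Each group had 2 to 7 precipitated libraries, but replicates were pooled before peaks were called, so every value below is that of 1 pooled list and has no replicate error. The lists held 105358 to 184050 autosomal peaks that covered 123 to 212 Mb. Where a gene has no peak, its enrichment did not pass the cutoff of the peak caller, and absence of the mark is not shown. The lists hold no expression values, so the labelled stages could not be checked by marker genes.

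Nucleosomes are built of H2A, H2B, H3 and H4, and H1 binds the linker DNA between them. The genes for these histones are transcribed mainly in S phase at a nuclear body organised by Npat, most lack introns, and their mRNAs end in a stem-loop bound by Slbp in place of a poly(A) tail. H3K9me3 marks constitutive heterochromatin and silenced repeats and is known as a barrier to the reprogramming of somatic nuclei by the oocyte. Hist1h2ba and Hist1h2aa encode TH2B and TH2A, the variants of H2B and H2A made in testis and oocyte, and Hist1h1t encodes the testis linker histone H1t.

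The members lay at 5 positions. On chromosome 13 there were 23 genes between 21715763 and 22043676 and 31 genes between 23531050 and 23934851, on chromosome 3 there were 10 (the Hist2h group, 96219865 to 96270132), on chromosome 11 there were 2 (the Hist3h group, 58948920 to 58956830) and on chromosome 6 there was 1 (Hist4h4, 136801553 to 136804415). Their median annotated length was 539 bases, against 17629 bases over all genes, and 48 members were under 1000 bases. The histone stem-loop, a stem of 6 base pairs with a loop of 4 bases, was found in the first 200 bases after the stop codon in 63 of the 67, beginning 22 to 59 bases after it. The most common form was shared by 41 genes. The genomic (GRCm38.p6) sense strand is shown for the testis variants, for an H4 gene and for an H2B gene that had no peak in any list, because these lines show that genes with and without H3K9me3 peaks carry the same processing signal (stem and loop in capitals).

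Hist1h2ba (chr13:23933725-23933750, minus strand): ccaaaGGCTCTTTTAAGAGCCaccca
Hist1h2aa (chr13:23934886-23934911, plus strand): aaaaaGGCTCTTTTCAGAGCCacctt
Hist1h1t (chr13:23696520-23696545, plus strand): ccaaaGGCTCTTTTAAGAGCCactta
Hist4h4 (chr6:136803993-136804018, minus strand): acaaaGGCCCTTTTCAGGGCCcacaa
Hist1h2bg (chr13:23571838-23571863, plus strand): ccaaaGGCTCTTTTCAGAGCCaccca

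Promoters of the members were rich in CpG. A promoter was taken as the sequence within 1 kb of the annotated 5′ end, and 64 of the 67 (95.5%) fell in the high-CpG class, against 49.9% of all genes. That class needs a 500-base window with an observed-to-expected CpG ratio of at least 0.75 and at least 55% GC. The exceptions were Hist1h2be and Hist1h1t (intermediate) and Hist1h1d (low). TATAAA, searched on both strands from 250 bases before to 50 bases after the start, stood in 37 members (55.2%) and in 12.7% of all promoters. CCAAT, searched in the same way, stood in 56 members (83.6%) and in 38.6% of all promoters. By type, CCAAT was present in 36 of 36 H2A and H2B promoters and in 20 of 31 H1, H3 and H4 promoters. A match is a description of the letters and not of a bound site.

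A promoter was counted as marked, after the study's rule, when 50% or more of it lay in a merged peak, or when 50% or more of a merged peak lay in it. Of the 67 members, 6 were marked in CC, against 7.85% of all genes (percentages that follow a count of members are that background). At 6 hpa 21 members were marked (29.9%), at 14 hpa 2 (8.59%), in 2-cell embryos 6 (6.39%), in 4-cell embryos 2 (6.10%) and in 8-cell embryos 2 (6.80%). No member was marked in morulae (5.11%), 2 were marked in ICM (4.00%), none in TE (4.13%) and 10 in PN5 (9.26%). As shares these were 8.96% in CC (Wilson 95% interval over genes 4.17% to 18.2%), 31.3% at 6 hpa (21.5% to 43.2%), 2.99% at 14 hpa (0.822% to 10.2%) and 14.9% in PN5 (8.31% to 25.3%). A count of 0 allowed a share of up to 5.42%. These intervals cover counting error over genes only. The background share lay inside the members' interval in CC, at 6 hpa, in PN5 and in every other list. High-CpG promoters, the class most like them, were marked at 41.1% at 6 hpa, inside that interval, and at 7.80% in PN5 and 4.10% in CC, both just under it.

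**Figure D1:**
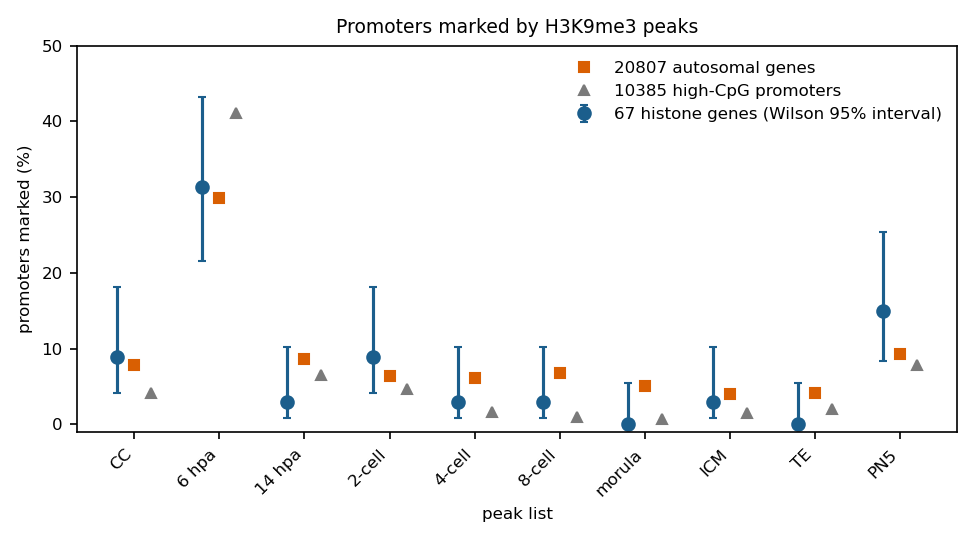
Share of promoters marked (y axis, percent) in each of the 10 peak lists (x axis). Circles are the 67 histone genes with Wilson 95% intervals, squares all 20807 autosomal genes and triangles the 10385 high-CpG promoters. The histone genes stand highest at 6 hpa (31.3%), as all genes do (29.9%), and at 0 in morula and TE.

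By gene body, the share of the annotated gene lying in merged peaks, 20 members had a covered base at 6 hpa (background 61.6%), 10 in PN5 (55.7%), 5 in 2-cell embryos (31.5%) and 4 in CC (45.4%). There were 2 at 14 hpa (44.6%), 3 in 4-cell (34.1%) and 3 in 8-cell embryos (37.6%), 2 in morulae (39.3%), 4 in ICM (40.0%) and 2 in TE (40.7%). Members are far shorter than most genes, so a covered base is less likely in them, while a single short peak fills more of the gene. Mean coverage and the share with at least 50% covered are therefore not like for like with all genes. The mean coverage was 14.6% over the members and 6.79% over all genes at 6 hpa, and 5.26% and 6.33% in PN5. In 2-cell embryos it was 4.95% and 3.53%, and in the other 7 lists it was lower in the members than in all genes, with 0.218% against 4.24% in morulae. At least 50% of the gene body was covered in 11 members at 6 hpa (background 3.29%), 3 in 2-cell embryos (1.62%) and 3 in PN5 (1.99%). Elsewhere there were 2 such members in CC (4.11%), 2 at 14 hpa (2.90%), 2 in 4-cell embryos (2.08%), 1 in 8-cell embryos (2.09%), 1 in ICM (0.952%) and none in morulae (1.52%) or TE (0.788%). The median member was at 0 in every list. In all, 26 members had a covered base in some list, 28 had a promoter marked in some list, and 32 had no covered base in gene body or promoter in any list. Those 32 were 3 of 6 H1, 6 of 18 H2A, 6 of 18 H2B, 9 of 12 H3 and 8 of 13 H4 genes. The counts across lists were not made for all genes, so they have no background.

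**Figure D2:**
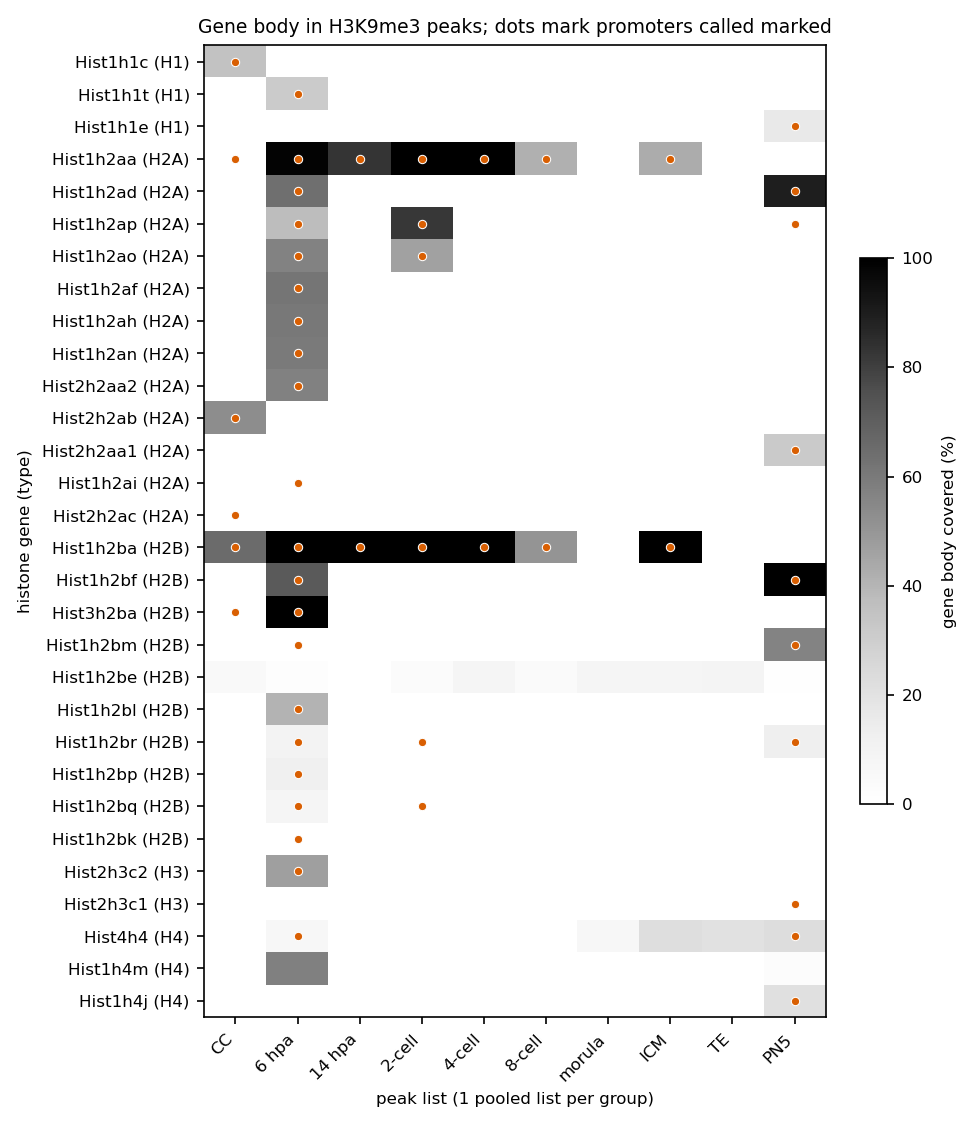
Gene body coverage (grey scale, percent of the annotated gene in peaks) of the 30 members with a covered gene body base or a marked promoter in some list (rows, grouped by histone type) in the 10 lists (columns). Dots show marked promoters. Hist1h2aa and Hist1h2ba are dark from 6 hpa to the 4-cell stage, and most other dark cells fall in the 6 hpa and PN5 columns.

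The testis and oocyte variants Hist1h2ba and Hist1h2aa were called marked in more lists than any other member. They are a head-to-head pair at the far end of the second chromosome 13 group (Hist1h2ba 23933773 to 23934156, minus strand; Hist1h2aa 23934462 to 23934851, plus strand). Of the Hist1h2ba gene body, 65.4% was covered in CC, 100% in the lists of 6 hpa, 14 hpa, 2-cell and 4-cell embryos, 50.8% in 8-cell embryos, 0% in morulae, 100% in ICM, and 0% in TE and PN5. Of Hist1h2aa, 0% was covered in CC, 98.7% at 6 hpa, 82.8% at 14 hpa, 100% in 2-cell and 4-cell embryos, 41.5% in 8-cell embryos, 0% in morulae, 42.8% in ICM, and 0% in TE and PN5. Both promoters were called marked in the same 7 lists, CC to 8-cell and ICM. Over all genes, 937 promoters were marked both in CC and at 6 hpa. Of these, 61.0% were marked at 14 hpa, 43.9% in 2-cell, 39.6% in 4-cell and 36.9% in 8-cell embryos. The share was 36.7% in morulae, 30.0% in ICM, 28.4% in TE and 27.2% in PN5. No other member was marked at 14 hpa, in 4-cell and 8-cell embryos or in ICM, or in more than 3 lists.

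The mark at the pair was a local peak. Widths were 769 bases in CC, 1455 at 6 hpa, 1220 at 14 hpa, 1923 in 2-cell embryos, 2214 in 4-cell embryos and 1309 in ICM, and the 8-cell list held separate peaks of 195 and 162 bases over the genes. Fold enrichment over input, a ratio given by the peak caller, was 2.53 in CC, 3.16 at 6 hpa, 2.38 at 14 hpa, 4.44 in 2-cell embryos, 3.06 in 4-cell embryos, 3.10 and 3.14 in 8-cell embryos and 2.57 in ICM. The 2-cell peak was thus the strongest of the series at this pair, and it ranked at percentile 95.9 of its own list by fold. In the 40000 bases around the pair, coverage was 1.92% in CC, 4.32% at 6 hpa, 4.68% at 14 hpa, 5.63% in 2-cell, 5.54% in 4-cell and 6.12% in 8-cell embryos, 0.988% in morulae, 3.27% in ICM, 0% in TE and 2.31% in PN5. The CC peak (−log10 q 1.93) and the ICM peak (1.76) were weak and fell away when peaks below 2 were removed, whereas those at 6 hpa (3.63), 14 hpa (2.49), 2-cell (6.12), 4-cell (2.24) and 8-cell (2.80 and 2.39) remained. Cutting every list to the covered length of the shortest removed the CC, 14 hpa and ICM calls. Of the 75-base words in these promoters 94.6% occur at a single place in the genome, so the peaks can be placed.

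**Figure D3:**
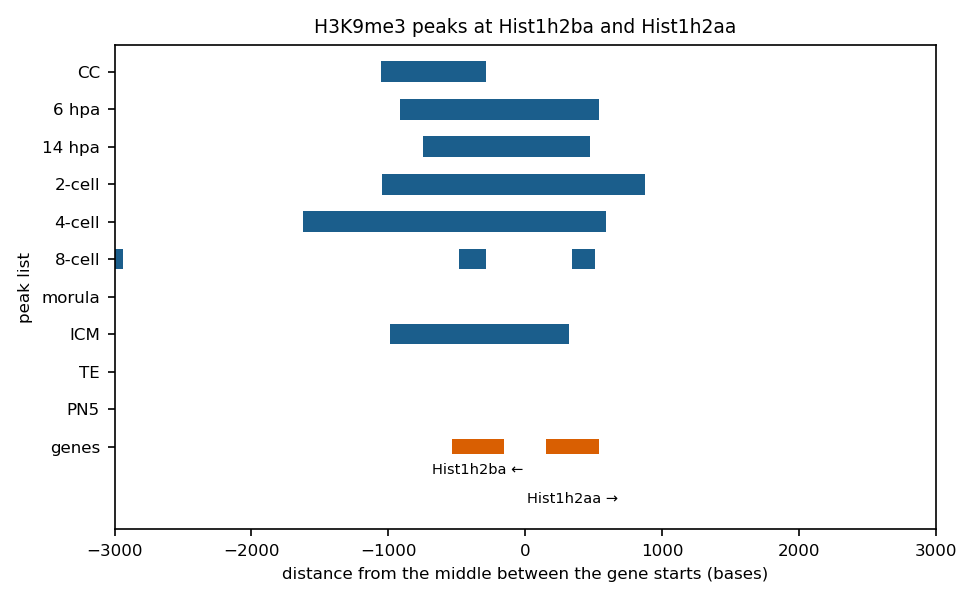
Merged peaks (blue bars) in the 10 lists within 3000 bases of the middle between the starts of Hist1h2ba and Hist1h2aa (x axis, bases), with the genes in orange and arrows for their strand. At least 82.8% of both genes is covered from 6 hpa to the 4-cell stage. ICM covers Hist1h2ba whole and Hist1h2aa in part, 8-cell embryos cover both in part, CC covers Hist1h2ba alone and in part, and morula, TE and PN5 have no peak over the genes.

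The stretch between the starts of the pair is shown with those of 3 other H2A and H2B pairs, because at 6 hpa peaks covered at least 50% of such a stretch in 5 of 13 pairs. CCAAT and TATAAA on either strand are in capitals, and each line gives the plus strand of GRCm38.p6.

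Hist1h2ba/Hist1h2aa (chr13:23934159-23934458, marked in 7 lists): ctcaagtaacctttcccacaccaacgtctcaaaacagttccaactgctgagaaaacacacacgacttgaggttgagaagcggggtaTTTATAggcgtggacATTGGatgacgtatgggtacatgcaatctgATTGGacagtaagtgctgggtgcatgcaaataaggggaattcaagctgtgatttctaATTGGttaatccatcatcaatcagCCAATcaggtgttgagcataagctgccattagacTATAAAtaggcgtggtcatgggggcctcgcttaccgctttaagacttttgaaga
Hist1h2bf/Hist1h2ad (chr13:23574197-23574380, marked at 6 hpa and in PN5): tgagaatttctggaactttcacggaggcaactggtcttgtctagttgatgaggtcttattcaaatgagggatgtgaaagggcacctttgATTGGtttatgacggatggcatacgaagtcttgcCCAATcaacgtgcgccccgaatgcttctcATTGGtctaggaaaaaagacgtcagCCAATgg
Hist1h2bq/Hist1h2ao (chr13:21810198-21810464, marked at 6 hpa and in 2-cell embryos): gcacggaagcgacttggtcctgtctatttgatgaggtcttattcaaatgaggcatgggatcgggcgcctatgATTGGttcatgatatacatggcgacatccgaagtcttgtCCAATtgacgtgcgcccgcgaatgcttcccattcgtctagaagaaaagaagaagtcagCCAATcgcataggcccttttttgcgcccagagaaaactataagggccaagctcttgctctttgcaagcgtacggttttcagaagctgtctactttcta
Hist1h2ae/Hist1h2bg (chr13:23571221-23571395, marked in no list): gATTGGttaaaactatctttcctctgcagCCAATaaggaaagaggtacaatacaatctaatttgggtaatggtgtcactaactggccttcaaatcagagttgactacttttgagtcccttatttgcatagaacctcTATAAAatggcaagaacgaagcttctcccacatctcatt

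There were 13 head-to-head pairs of members with starts up to 1 kb apart, 12 of them an H2A with an H2B gene. At 6 hpa both promoters were marked in 7 pairs and neither in 6, which follows in part from the overlap of the promoters in each pair. The stretch between the starts of the 7 pairs held 7 to 15 CpG (median 10), and that of the 6 held 1 to 12 (median 6.5). The median observed-to-expected CpG ratio was 0.888 and 0.559, with overlapping ranges (0.483 to 1.00 and 0.158 to 0.828). This comparison was chosen after the values were seen. In other lists both promoters were marked in 3 pairs (2-cell), 2 (PN5), 1 (CC, 14 hpa, 4-cell, 8-cell, ICM) and 0 (morula, TE). Head-to-head pairs of other genes were not counted, so the counts of marked pairs and of covered stretches have no background.

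At 6 hpa the marked members were mainly H2A and H2B genes. Of H2A promoters 9 of 18 were marked and of H2B promoters 9 of 18, against 1 of 6 H1, 1 of 12 H3 and 1 of 13 H4 promoters. Together this was 50% of the 36 H2A and H2B genes (Wilson 34.5% to 65.5%) and 9.68% of the 31 others (3.35% to 24.9%), beside 29.9% of all promoters and 41.1% of high-CpG promoters, the latter inside the H2A and H2B interval. Many of these genes share promoters and sequence, so they are not independent of each other. Fewer than 50% of the 75-base words of the gene were unique in 14 of the 21 marked and in 13 of the 46 unmarked members, and the part of shared reads in the calls was not tested. Promoters were then restricted to those in which at least 50% of 75-base words are unique. The counts were 13 of 30 H2A and H2B genes (43.3%, Wilson 27.4% to 60.8%) and 2 of 27 others (7.41%, 2.06% to 23.4%). The shares of all promoters and of high-CpG promoters, which were not restricted, both lay inside the first interval and above the second. Without the restriction, the counts in PN5 were 6 of 36 and 4 of 31. The calls depend on the rule. Only Hist1h2ba, Hist1h2aa and Hist3h2ba had at least 50% of the promoter itself covered at 6 hpa, and the other 18 were called by short peaks inside it. With overlapping promoters merged, the 67 promoters made 38 regions, of which 13 were marked.

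**Figure D4:**
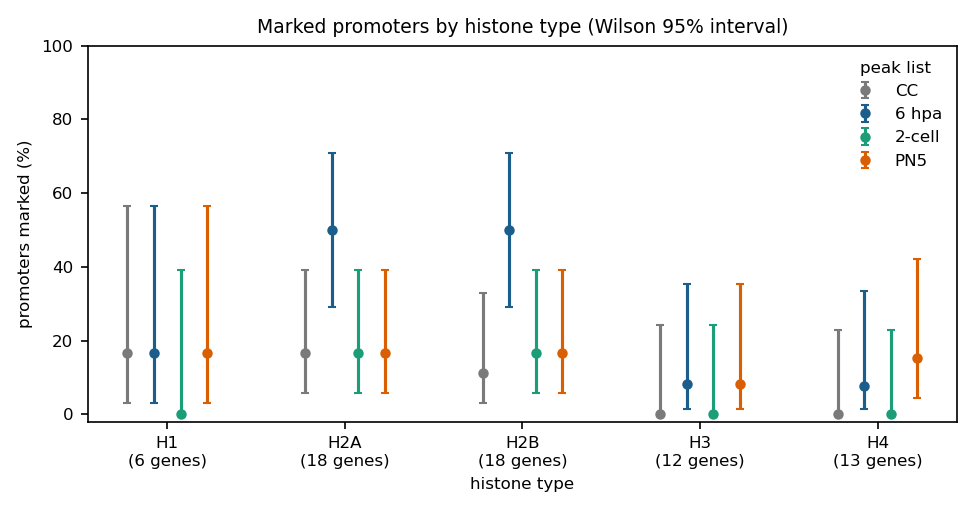
Share of promoters marked (y axis, percent) for each histone type (x axis, with the number of genes) in CC, 6 hpa, 2-cell and PN5. Points are shares and bars Wilson 95% intervals over genes. At 6 hpa H2A and H2B genes stand at 50% and H3 and H4 genes at 8.33% and 7.69%.

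The peaks that covered these genes at 6 hpa were short and of common strength. The 17 peaks on members or their promoters had a median width of 521 bases and a median fold of 2.74, beside 563 bases and 2.73 over all 157765 autosomal peaks of the list. Their lowest fold was 2.29 and their highest 4.11. Seen from the annotated starts, 25.4% of members had a peak at 200 bases after the start, the highest share at any position, 19.4% had one at the start itself, and the mean beyond 2 kb on either side was 3.71%. In PN5 the highest share was 11.9%, again at 200 bases. In no other list did the share at any position within 5 kb pass 5.97%. Shares by position were not computed for all genes or for high-CpG promoters, so they have no background.

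Going from CC to 6 hpa, 3 promoters were inherited (marked in both; background 4.50%), 18 were de novo (marked only at 6 hpa; 25.4%) and 3 were erased (marked only in CC; 3.35%). The inherited ones were Hist1h2ba, Hist1h2aa and Hist3h2ba. The erased ones were Hist2h2ab and Hist2h2ac, neighbouring H2A genes on chromosome 3, and Hist1h1c, the gene of linker histone H1.2. Hist2h2ab and Hist2h2ac shared a peak of 235 bases with a −log10 q just under 2. When peaks below 2 were removed, the erased promoters were instead Hist3h2ba and Hist1h1c. In CC 52.9% of Hist2h2ab and 34.9% of Hist1h1c were covered, and both had 0% in the other 9 lists.

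Of the 18 de novo promoters none was marked at 14 hpa, while 11.8% of the 5283 de novo promoters of the genome were. In 2-cell embryos 4 were marked (8.44% of all), and none from the 4-cell stage to ICM and TE. The 4 were the pairs Hist1h2bq with Hist1h2ao and Hist1h2ap with Hist1h2br. Both promoters of a pair were called by the same peak. No 75-base word of these promoters is unique, so the 4 calls are uncertain and not independent. In PN5 6 of the 18 were marked (12.2% of all). Among them, Hist1h2ap and Hist1h2br were called by a shared peak, as were Hist1h2bf and Hist1h2ad, so the calls are not independent. The −log10 q was 1.35 for the peak at Hist1h2bf and Hist1h2ad and 1.67 for that at Hist1h2bm.

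Gene body coverage differed most between CC and 6 hpa at Hist3h2ba. This H2B gene on chromosome 11 went from 0% to 100%, with 0% in the other 8 lists. The 6 hpa peak over it was weak (fold 2.29, −log10 q 1.59) and was lost when peaks below 2 were removed. In CC a stronger peak (fold 3.27, −log10 q 4.08) lay on its promoter, outside the gene body. Some H2A genes, in pairs or not, were covered at 6 hpa and had 0% in the other 9 lists. They were Hist1h2af (61.4%), Hist1h2ah (60.2%), Hist1h2an (60.1%) and Hist2h2aa2 (57.2%). Fewer than 50% of the 75-base words of each of these 4 genes are unique, and Hist2h2aa1, the near-identical copy of Hist2h2aa2, was covered in PN5. The H4 gene Hist1h4m had 57.5% at 6 hpa and 1.99% in PN5, at the edge of a wider peak, with 0% in the other 8 lists, and its promoter was not called marked. Fewer than 50% of its 75-base words are unique. Hist1h2bf had 71.8% at 6 hpa and 100% in PN5, and its H2A partner Hist1h2ad 63.8% and 89.5%, both with 0% in the other 8 lists. The testis linker gene Hist1h1t had 30.9% at 6 hpa and 0% in the other 9 lists, from a peak of 435 bases with a fold of 2.56.

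A set of near-identical copies on chromosome 13 held the peaks of highest fold. Hist1h2bq, Hist1h2ao and Hist1h4m stand in inverted order to Hist1h4n, Hist1h2ap and Hist1h2br, 19619 bases apart at their inner ends. No 75-base word of Hist1h2bq, Hist1h2ao, Hist1h2ap or Hist1h2br or of their promoters is unique, so reads of the copies cannot be told apart and the values of the copies are uncertain. Hist1h2ao had 56.9% at 6 hpa and 46.2% in 2-cell embryos, and Hist1h2ap had 37.1% and 82.4%, both with 0% in the other 8 lists. In 2-cell embryos the peak over Hist1h2ao and the Hist1h2bq promoter (chr13:21810435-21810686, 252 bases) had a fold of 8.21 and −log10 q of 21.2, the highest fold at any member in any list and percentile 99.98 of its own list. The peak at Hist1h2ap (chr13:21833111-21833507) had a fold of 5.62. Neither stretch had a covered base in lists other than 6 hpa and 2-cell. Hist1h2br had 9.58% at 6 hpa and 12.8% in PN5.

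The stretch between the copies held a domain present in all 10 lists. In ICM it was a peak of 7241 bases (chr13:21812540-21819780, fold 6.14), of which 65.2% is repeat-masked in the reference. It touches the Hist1h4m promoter. Coverage of that stretch was 86.3% in CC, 78.1% at 6 hpa, 99.4% at 14 hpa, 91.7% in 2-cell, 95.4% in 4-cell, 89.8% in 8-cell embryos, 65.2% in morulae, 100% in ICM, 98.8% in TE and 74.3% in PN5. Hist1h4m had no peak of its own. The domain peak reached into the gene only at 6 hpa (chr13:21811917-21817645) and, at the gene's edge, in PN5 (chr13:21812140-21817315). The 14 hpa peak on the same stretch had a fold of 5.01.

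**Figure D5:**
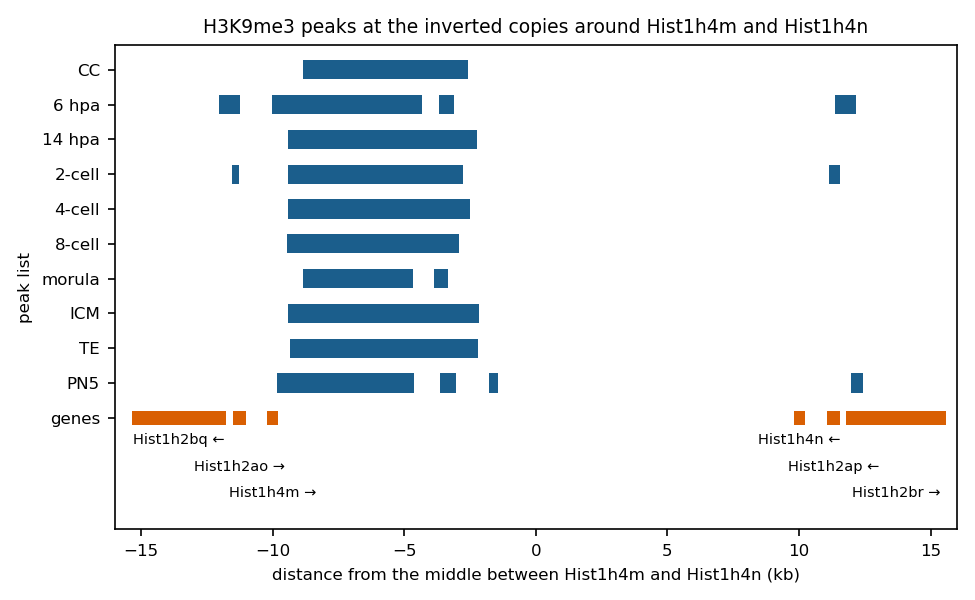
Merged peaks (blue bars) in the 10 lists within 16 kb of the middle between Hist1h4m and Hist1h4n (x axis, kb), with genes in orange and arrows for their strand. The domain to the right of Hist1h4m is present in all 10 lists, whereas peaks over the H2A and H2B copies appear only at 6 hpa, in 2-cell embryos and, on the right side, in PN5.

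Late SCNT 1-cell embryos (14 hpa) and fertilized zygotes (PN5) had no marked member in common, and 2.83% of all promoters were marked in both lists. At 14 hpa the marked members were Hist1h2ba and Hist1h2aa, and in PN5 they were Hist1h2ad, Hist1h2ap, Hist1h2bf, Hist1h2bm, Hist1h2br, Hist2h2aa1, Hist2h3c1, Hist4h4, Hist1h4j and Hist1h1e. The largest differences in gene body coverage were at Hist1h2ba (100% at 14 hpa, 0% in PN5), Hist1h2bf (0% and 100%), Hist1h2ad (0% and 89.5%), Hist1h2aa (82.8% and 0%) and Hist1h2bm (0% and 56.5%). Hist1h2bm, an H2B gene, had 0% in the other 9 lists, with a marked promoter also at 6 hpa. PN5 shared 6 marked members with the 6 hpa list, Hist1h2ad, Hist1h2ap, Hist1h2bf, Hist1h2bm, Hist1h2br and Hist4h4, while 4.32% of all promoters were marked in both. The PN5 calls of Hist1h2bf and Hist1h2ad came from a single peak of 1711 bases near the limit of detection, with a −log10 q of 1.35. Those of Hist1h2ap and Hist1h2br also came from a single peak.

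ICM and TE differed at the testis pair, which had a peak in ICM and none in TE. The ICM peak was weak (−log10 q 1.76), and without peaks below 2, or with lists cut to equal covered length, the pair was marked in neither lineage. Beyond this pair only Hist4h4 and Hist1h2be had covered gene body bases in either lineage, at 22.2% in ICM and 20.5% in TE for Hist4h4 and 8.31% and 9.27% for Hist1h2be. The other 63 members were at 0 in both. The annotated span of the H2B gene Hist1h2be is 37455 bases, so the peaks lay far from its start and outside its coding sequence. It had 4.35% in CC, 1.88% at 6 hpa, 0% at 14 hpa, 2.77% in 2-cell, 8.37% in 4-cell, 3.76% in 8-cell embryos, 8.34% in morulae and 0.398% in PN5. Its strongest peak, in morulae (chr13:23610822-23611403), had a fold of 4.97 and is fully repeat-masked, and the same stretch was also covered in ICM (100%) and TE (94.5%) and in no other list.

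Of the 13 members outside chromosome 13, 8 were marked in some list, and of the 54 on chromosome 13 20 were. The share of all genes marked in some list was not computed, so these counts have no background. Of the 10 chromosome 3 genes, Hist2h2ab and Hist2h2ac were marked in CC, Hist2h2aa2 and the H3 gene Hist2h3c2 at 6 hpa, and Hist2h2aa1 and Hist2h3c1 in PN5. Gene body coverage was 47.0% for Hist2h3c2 at 6 hpa and 31.6% for Hist2h2aa1 in PN5. Hist2h2aa1 and Hist2h2aa2 are near-identical, with 3.91% and 0% of their 75-base words unique, so which copy carried the mark cannot be told. In the promoters of Hist2h3c2 and Hist2h3c1, 25.3% and 24.3% of the words are unique, so these H3 calls are uncertain too. The Hist2h3c1 promoter was called in PN5 by the peak on Hist2h2aa1 (−log10 q 1.60). Hist2h2be, Hist2h4, Hist2h3b and Hist2h2bb were marked in no list, and neither was Hist3h2a on chromosome 11, whose neighbour Hist3h2ba was marked in CC and at 6 hpa. Hist4h4, the single H4 gene on chromosome 6, had 0% in CC, 6.57% at 6 hpa, 0% from 14 hpa to the 8-cell stage, 6.29% in morulae, 22.2% in ICM, 20.5% in TE and 22.4% in PN5. Its peaks in morula, ICM and TE were centred 2103 to 2341 bases after the start, outside the coding sequence, and those at 6 hpa and in PN5 at the promoter, which was marked in these 2 lists. Of its coding sequence 60.3% was covered at 6 hpa and 100% in PN5.

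Across whole groups, coverage of the chromosome 13 spans was mostly below that of the autosomes. In the first group the span had 3.05% to 4.84%, below the autosomal share in every list. In the first chromosome 13 group, members were covered at 11.7% at 6 hpa and the bases between them at 3.97%, and in PN5 at 5.11% and 4.03%, while in CC, at 14 hpa and from the 4-cell stage to TE members had 0% and the bases between them 3.55% to 5.13%. In the second group the span as a whole had 3.24% to 6.88%, below the share of all autosomal bases covered in the same list (4.98% to 8.62%) except in 8-cell embryos, where 6.88% of the span and 6.84% of the autosomes were covered. On chromosome 3 the span was at 0 from the 2-cell stage to TE, while its right flank of 50 kb had 30.1% in 2-cell and 40.1% in 4-cell embryos. The peaks there lay outside the histone genes.

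Of the 9 other protein-coding genes inside these groups, Slc17a1 was marked at 6 hpa and Slc17a2 in 8-cell embryos, and the other 7 (Zfp184, Pom121l2, Prss16, Hfe, Trim38, Slc17a3 and Slc17a4) in no list. The Slc17a genes, solute carriers of the organic anion family, stand between Hist1h1a and the testis pair.

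Histone genes that are not tied to replication and factors of histone mRNA and supply were counted in the same way. Of 14 replication-independent histone genes 4 were marked at 6 hpa (H1fx, H2afj, H1f0 and H1fnt; background 29.9%), 3 in 2-cell embryos (H2afj, H2afx and H1fnt; 6.39%) and 2 in 4-cell embryos (H2afz and H1fnt; 6.10%). H1fnt alone was marked at 14 hpa (8.59%), in 8-cell embryos (6.80%), ICM (4.00%), TE (4.13%) and PN5 (9.26%), and none in CC (7.85%) and morulae (5.11%). H1fnt encodes the spermatid linker histone H1t2. Its gene body coverage was 0% in CC, 52.7% at 6 hpa, 62.2% at 14 hpa, 86.9% in 2-cell, 69.8% in 4-cell, 34.1% in 8-cell embryos, 0% in morulae, 21.1% in ICM, 72.2% in TE and 81.2% in PN5. Unlike the testis pair it was thus also covered in TE and PN5. H2afx, the H2A variant of DNA damage signalling, had 61.7% in 2-cell embryos and 0% in the other 9 lists. H1fx, a linker histone of somatic cells, had 60.5% at 6 hpa and 0% elsewhere. At the promoters, 10.5% of that of H2afj was covered at 6 hpa and 15.4% in 2-cell embryos, 20.8% of that of the differentiation-linked linker gene H1f0 at 6 hpa, and of that of H2afz, the gene of H2A.Z, 19.4% in 4-cell embryos, 46.0% in ICM and 44.5% in TE. The H2afz promoter was called marked in the 4-cell list alone.

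Of 20 factors of histone mRNA processing, transcription and chaperoning, 3 were marked at 6 hpa (Sympk, Asf1a and Ubn1; background 29.9%), 3 in 2-cell embryos (Slbp, Asf1a and Chaf1a; 6.39%), 1 in PN5 (Daxx; 9.26%) and none in the other 7 lists. Promoter coverage was 69.9% for Sympk, a scaffold of the cleavage complex, 50.3% for the chaperone Asf1a and 14.2% for Ubn1, a partner of Hira, at 6 hpa. In 2-cell embryos it was 8.50% for Slbp, the stem-loop binding protein, 8.25% for Asf1a and 10.1% for Chaf1a, the large subunit of chromatin assembly factor 1, and in PN5 it was 22.0% for Daxx, the H3.3 chaperone. Npat and the other 13 factors had no marked promoter in any list.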

How the data were processed

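The authors trimmed reads with Cutadapt 1.16, aligned them to mm10 with BWA mem, merged the replicates of each group with SAMtools, removed duplicates and drew equal numbers of reads with Picard, and called broad peaks over input with MACS2. The MACS2 version and threshold are not given in the sources used here. Each deposited list carries, per peak, the fold enrichment over input (a ratio) and the −log10 q, both computed by the authors' peak caller. Read counts are not in the lists, so depth behind single peaks is unknown.

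From these lists, peaks on the 19 autosomes were merged where they touched and intersected with GENCODE M21 genes in Python 3 (pandas, numpy). All peaks lay within the chromosome ends of GRCm38.p6, from which sequence was read. A promoter was within 1 kb of the 5′ end. Members less than 500 kb apart were joined as a group. A 75-base word was unique when it occurred at a single place in the assembly. Coverage and marking were checked on simulated peaks, with 200 of 200 genes recovered. With 1 pooled list per group no test was run and no difference has a p-value, so values are set side by side.

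The members, the lists of other genes and the alternatives were chosen with earlier results of these data known. Named genes followed a rule: the 10 members of highest mean gene body coverage, the members that differed most between CC and 6 hpa (up to 10), 14 hpa and PN5, and ICM and TE (up to 5 each), Hist1h1t, Hist1h2aa and Hist1h2ba, members outside chromosome 13, the 5 peaks of highest fold, and listed genes with a marked promoter. Alternatives were stricter peaks, equal list length, other promoter widths and overlaps, merged promoters, joined peaks, unique members and, chosen after seeing the data, coding sequence only.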

Additional observations from a re-analysis of the deposited data

How the results depend on the processing

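No paired analysis was possible because each group has a single pooled list, which also leaves no replicate to omit. Of 119 recomputed counts, 81 stayed within 1.5 times the reported one and 38 did not. The cause was not tested. Only peaks with a −log10 q of at least 2 gave 2 marked promoters in CC (6.25% of all promoters), 0 in ICM (3.20%) and 5 in PN5 (4.55%). Members with a covered gene body base then numbered 2 in CC, 2 in ICM and 5 in PN5. Lists cut to the covered length of the shortest gave 1 marked promoter in CC (3.38% of all promoters), 0 at 14 hpa (3.03%) and 0 in ICM (2.27%). Covered members in these lists numbered 1, 0 and 2. The inherited promoters numbered 0 under both settings and the erased ones 1 with lists of equal length. A promoter of 500 bp on each side gave 2 marked in CC. Counting a promoter only where at least 50% of it was covered gave 0 in CC and 8-cell embryos, 3 at 6 hpa, 2 in 2-cell embryos and 2 in PN5, with 0 inherited, 3 de novo and 0 erased. Any overlap of 1 base gave 1 in morula and 1 in TE. Merged promoters gave 13 regions at 6 hpa, 3 in 2-cell embryos and 1 at 14 hpa and in 4-cell embryos, 8-cell embryos and ICM, which follows from counting overlapping promoters once. Restricted to members at least 50% unique, covered members numbered 7 at 6 hpa, 3 in 2-cell embryos and 5 in PN5, with fewer members counted. With coding sequence only, an alternative chosen after seeing the data, they were 0 in morula and TE and 2 in ICM. Joining peaks across gaps of up to 1 kb moved no count beyond 1.5 times. Under the reported setting, stricter peaks and equal list length, the 6 hpa counts of marked H2A and H2B promoters were 18, 17 and 17 of 36 and those of the other types 3, 1 and 2 of 31.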

Other observations

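The rule left out 3 histone pseudogenes with symbols of the same form, which were examined for their coverage alone. Hist1h2aj, a pseudogene of H2A beside Hist1h2bm (chr13:21721457-21721808), had 90.9% of its span covered at 6 hpa and 51.1% in PN5 and 0% in the other 8 lists. These are the lists in which the Hist1h2bm promoter was marked. The peak over it at 6 hpa (chr13:21721489-21721811) had a fold of 4.11 and a −log10 q of 6.74, the highest of the 17 peaks at members or their promoters in that list. Hist3h2bb-ps on chromosome 11 and Hist1h2al on chromosome 13 had no covered base in any list.

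Among the histone and histone supply genes counted here, H1fnt was marked in 8 of the 10 lists and the pair Hist1h2ba and Hist1h2aa in 7, and no other gene in 7 or more. All 3 were marked at 6 hpa, 14 hpa, in 2-cell, 4-cell and 8-cell embryos and in ICM, and none of them in morulae. In morulae 21.3% of the H1fnt promoter was still covered, under the rule for marking. Hist1h2ba and Hist1h2aa were marked by the same peaks and are not independent. Other histone genes of male germ cells by background knowledge did not share this pattern of lists, since Hist1h1t was marked at 6 hpa alone and Hils1 in no list. This was noticed after the values were seen and was not tested.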
